A study of Homo sapiens with 12 samples.

Results

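The heterogeneous nuclear ribonucleoproteins (hnRNPs) and the serine/arginine-rich (SR) splicing factors were examined as targets of RNA acetylation. Members were taken by symbol from 4 deposited lists of N4-acetylcytidine (ac4C) peaks. A gene was a member if its symbol began with HNRNP or SRSF, or if it was TRA2A, TRA2B, PTBP1, PTBP2, PTBP3, SRRM1 or SRRM2, and pseudogenes were left out. This gave 40 of the 10992 genes with a listed peak and 999 of 140401 peaks. The assay, ac4C-RIP-seq, captures RNA fragments with an antibody to ac4C and sequences them. H1, a long-established line of human embryonic stem cells, was used throughout. The comparison sets wild-type H1 against H1 that carried a short hairpin RNA to NAT10, the RNA cytidine acetyltransferase. Of the 12 samples, 2 per genotype were immunoprecipitates, and a separate peak list belongs to each of these. The control cells are labelled only as wild type, with PGM1 as medium on Matrigel, and no control hairpin is named. The hairpin was carried by a GV112 lentivirus with GFP, and the GFP-positive cells were enriched after 48 h and grown in TeSR-E8 with 0.5 ug/ml puromycin. Effects of transduction, GFP enrichment, puromycin and medium therefore cannot be told apart from those of NAT10. The labels do not say whether the knockdown cells were a pool or clones.

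SR proteins bind exonic enhancer sequences and help the spliceosome to include an exon. hnRNPs coat nascent transcripts and often act against inclusion of an exon, although both families can act either way depending on where they bind. Many of these proteins also bind their own transcripts and limit their own amount through alternative splicing and decay of the spliced product. In pluripotent stem cells they are abundant, and several of them shape the splicing programme that changes when the cells differentiate.

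The bases at the starts of 9 members are shown because a listed peak reached the first 50 transcribed bases there in both knockdown lists. Of the 9, 7 had none there in either wild-type list, a share close to the 71.9% of all such genes. HNRNPAB, among these, had a peak in both wild-type lists that began a little further along the gene. Each line gives bases 21 to 50 after the RefSeq start, on the transcribed strand from 5′ to 3′ (RefSeq, GRCh38.p14, which is hg38). Capitals mark bases inside a listed peak in both knockdown lists. For HNRNPR, PTBP1, SRRM1 and SRSF10 that peak spanned over 1000 nt in both lists. The stretches are HNRNPAB at chr5:178204553-178204582 (+), HNRNPK at chr9:83980566-83980595 (-), HNRNPR at chr1:23344235-23344264 (-), PTBP1 at chr19:797472-797501 (+), SRRM1 at chr1:24643322-24643351 (+), SRSF1 at chr17:58007197-58007226 (-), SRSF10 at chr1:23980278-23980307 (-), SRSF5 at chr14:69767162-69767191 (+) and SRSF7 at chr2:38751312-38751341 (-).
HNRNPAB: acggaGCTTGGCTGTTGGTCGGTGGGTTCC
HNRNPK: CAGGCGACAGCACTGCAGACGCCATTATCC
HNRNPR: aagcgccTCGCGCTGATTCTCACGGGCCCG
PTBP1: TCCCCCGCGGGTCTGCTCTGTGTGCCATGG
SRRM1: GCAAGATGGACgcgggatttttccgcgtaa
SRSF1: GGAGACGTGGTGCCGCTGCGGGCTCGCTCT
SRSF10: GCGGACGGTTTGCTGAGCCCGTTAGTGCGC
SRSF5: GACGAGTTAAgtcctggtctgcgtggaggt
SRSF7: GGCGGGTGAAGGTGTGTGTCAGCTTTTGCG
The first 50 bases of these 9 starts held between 7 and 21 cytidines, and the median over the 35116 RefSeq start windows was 14.0. A run of 4 cytidines with a pair of any bases after each (CNNCNNCNNCNN, searched on the transcribed strand within the first 50 bases) was found at HNRNPAB and PTBP1. It was found in 25.7% of all windows. A match describes letters and does not show a modified base.

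In all, 37988 and 38150 peaks were listed for wild type, and 27787 and 36476 for knockdown. The lists give no read counts, so depth is unknown, and without the input and IgG libraries, which are not analysed here, peaks are not corrected for RNA amount. Fewer molecules of an RNA and less ac4C per molecule cannot be told apart in such lists. Each peak carries a score of the authors whose meaning is not stated. It is used here only as a percentile rank within its own list. NAT10, the targeted gene, had 7 and 9 listed peaks in wild type and 0 in both knockdown lists. Of 11 pluripotency markers, 11 had a listed peak in at least 1 list, with 87, 73, 44 and 58 peaks in all (wild type 1, wild type 2, knockdown 1, knockdown 2). In 6 of the 11 both knockdown counts were below both wild-type counts, among them DNMT3B (14, 10, 0 and 0) and LIN28A (9, 9, 2 and 2), and in 1 both were above. Over all genes 22.3% were below and 16.6% above. The marker total thus moved in the same direction as the member total, and the part of these markers in the member result was not tested. By mean, SOX2 (6, 4, 5 and 8), NANOG (5, 4, 6 and 5), SALL4 (9, 8, 7 and 11) and TDGF1 (4, 0, 5 and 8) were higher in knockdown. The markers of mesoderm, endoderm and trophectoderm had none, ectoderm had 1 of 3 (NES), and 3 of 3 fibroblast markers had peaks. The peak numbers in the lists run in the order of gene identifiers, and each list skips between 6048 and 8564 numbers. A skipped number can belong to a gene or to its neighbour in that order. This bears directly on members that a list lacks, since numbers were skipped at their place in 23 of 24 cases (95.8%, against 74.7% of such cases over all genes). It bears on the genes above too. The knockdown lists skipped 3 and 4 numbers at the place of NAT10 and 11 and 15 at that of DNMT3B. The second wild-type list skipped 19 at that of TDGF1.

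Members had fewer listed peaks in knockdown than in wild type, 349 and 271 against 205 and 174. Both knockdown lists lay below both wild-type lists. Wild type averaged 310 ± 55.2 peaks and knockdown 189.5 ± 21.9 (SD over 2 lists each). The ratio was 0.611, beside 0.844 for all peaks. The two-sided exact permutation test gave p = 0.333, the smallest that 2 libraries against 2 allow. Member peaks made up 0.919% (95% exact interval 0.825 to 1.02) and 0.710% (0.629 to 0.800) of the wild-type lists. They made up 0.738% (0.641 to 0.845) and 0.477% (0.409 to 0.553) of the knockdown lists. These shares overlapped between genotypes (exact p = 0.667). Adding the skipped numbers at or inside members gave 436, 364, 307 and 334, a ratio of 0.801, beside 0.900 for all numbers. That count, made after the values were seen, is not a firm limit in either direction. Some numbers can be a neighbour's, and numbers skipped just before or after the run of a listed member were left out. The 23 members listed in all 4 lists, also taken after the values were seen, had 205, 167, 145 and 152 peaks, a ratio of 0.798. Over the 3553 genes of all kinds listed in all 4 lists the ratio was 0.770, so members listed everywhere were not lower than such genes in general. Being listed everywhere is itself decided by the knockdown lists.

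Member peaks of all lengths covered 229.8 and 226 kb in wild type, against 164 and 242 kb in knockdown. These lengths overlapped, with the second knockdown list the highest (ratio 0.891, exact p = 1.00). The shorter peaks alone separated the genotypes. Peaks of up to 1000 nt covered 43.2 and 40.4 kb of members in wild type, against 21.1 and 18.6 kb in knockdown, without overlap. The ratio was 0.476 (exact p = 0.333, the smallest possible), beside 0.834 for such peaks of all genes. In the 23 members listed everywhere the lengths were 25.2 and 24.3 kb against 12.7 and 16.2 kb, a ratio of 0.583. The matching ratio over all genes listed everywhere was not computed, so 0.583 has no like background here. Peaks over 1000 nt, whose spans can hold introns, numbered 33 and 26 for wild type. For knockdown they numbered 37 and 38. Such long peaks were 9.46 and 9.59% of wild-type member peaks, against 18.0 and 21.8% in knockdown, without overlap (difference 10.4 points, exact p = 0.333). Over all peaks these shares were 22.8, 24.1, 25.3 and 24.9%. The length cut was chosen after the lists were seen, and whether exon structure or RNA amount moved with it was not tested.

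**Figure D1:**
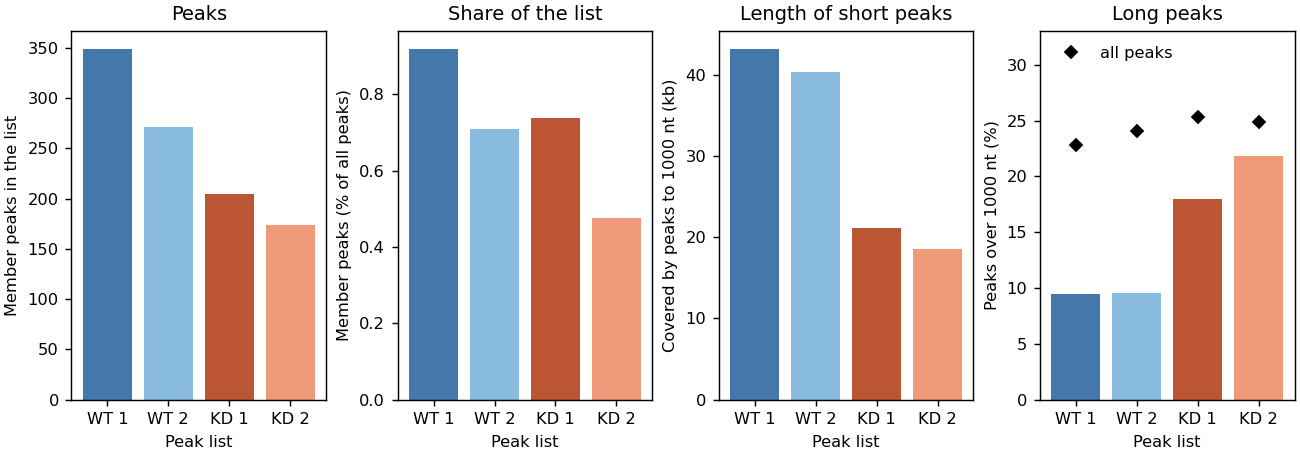
Number of member peaks, their share of the list, the length covered by member peaks of up to 1000 nt (kb) and the share of member peaks over 1000 nt, with 1 bar per list (WT, wild type; KD, NAT10 knockdown) and diamonds for all peaks. The counts and the covered length are lower in both knockdown lists, the shares of the list overlap, and the long-peak share is higher in both knockdown lists.

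The hnRNP A, B and D proteins are RNA-binding repressors and packagers of nascent RNA. HNRNPA2B1 had 15 and 13 listed peaks in wild type and 0 in both knockdown lists, and no other member stood in each wild-type list but in no knockdown list. The knockdown lists skipped 22 and 19 numbers at its place, more than the peaks it had in wild type. Of its 28 wild-type peaks, 7 lay beyond the 3′ end of the RefSeq gene. HNRNPAB had 8 and 6 against 4 and 4 peaks, and HNRNPDL 7 and 4 against 2 and 0, each without overlap. HNRNPA1 (10, 7, 3 and 9 peaks in the order wild type 1, wild type 2, knockdown 1, knockdown 2), HNRNPA0 (4, 5, 7 and 3) and HNRNPA3 (3, 8, 7 and 12) overlapped between genotypes. HNRNPD had 7, 5, 5 and 0. HNRNPA1L2 (3, 0, 2 and 0) and HNRNPA1L3 (0, 2, 2 and 2) are near-identical copies of HNRNPA1, so which copy their reads came from is uncertain, as it can be for other close paralogs of the families.

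HNRNPU, a nuclear matrix and chromatin-associated hnRNP, had the most peaks of any member. It had 33 and 24 listed peaks in wild type, 10 in the first knockdown list and 0 in the second. Both knockdown values lay below both wild-type values, but the second list skipped 26 numbers at its place, where no other listed gene was due. Of its 67 peaks, 23 lay outside the RefSeq gene. HNRNPUL1, a relative of HNRNPU, had 10, 9, 12 and 10 peaks, and HNRNPUL2 had 13, 7, 7 and 8, of which most stood in a stretch that also held peaks of BSCL2. HNRNPUL1 and HNRNPUL2 overlapped between genotypes.

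HNRNPK, which binds C-rich RNA and DNA, was listed in knockdown alone, with 0 and 0 peaks in wild type and 4 and 5 in knockdown. The wild-type lists skipped 15 and 13 numbers at its place, more than the peaks it had in knockdown. Its antisense RNA HNRNPK-AS1, caught by the symbol prefix, had 2 peaks in the second wild-type list only. HNRNPC, which packages nascent RNA and shields cryptic exons, had 14, 0, 4 and 0 peaks. It was absent from 1 list of each genotype, with 18 and 13 numbers skipped there.

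Among the hnRNP F and H proteins, which bind G-rich elements, HNRNPH1 had 11 and 11 peaks in wild type and 7 and 7 in knockdown, without overlap. HNRNPF had 6, 7, 3 and 6, HNRNPH2 3, 3, 0 and 5, and HNRNPH3 7, 5, 8 and 0. HNRNPL, a binder of CA-rich RNA, had 13 and 7 against 4 and 0, and its relative HNRNPLL had 7 and 5 against 3 and 3, each without overlap. HNRNPR had 16, 7, 7 and 6 and HNRNPM 7, 3, 4 and 5, which overlapped. The polypyrimidine tract proteins repress exons. PTBP2, the form known from neurons, had 10 and 6 peaks against 2 and 5, and PTBP3 had 11 and 9 against 0 and 3, each without overlap. PTBP1 had 8, 5, 5 and 9, which overlapped.

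SRSF peaks overlapped in number between genotypes. The 10 listed SRSF genes had 76, 62, 62 and 52 peaks, a ratio of 0.826 (exact p = 0.667). SRSF1, a general splicing activator, had 11, 12, 12 and 6, and SRSF3, which also takes part in RNA export, had 11, 10, 11 and 8. SRSF7 (6, 5, 6 and 7), SRSF4 (3, 7, 7 and 6), SRSF5 (9, 2, 10 and 7) and SRSF10 (14, 7, 7 and 5) also overlapped or met between genotypes. SRSF11 had 11 and 8 peaks against 3 and 4, SRSF2 had 7 and 8 against 3 and 6, and SRSF9 had 4 and 3 against 1 and 0, each without overlap. SRSF6 was listed in knockdown alone, with 2 and 3 peaks, and the wild-type lists skipped 9 and 7 numbers at its place. SRSF8 and SRSF12 had no listed peak.

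The SR-related activator TRA2B had 11 and 11 peaks against 5 and 8, without overlap, and TRA2A had 3, 4, 0 and 4. SRRM2, a scaffold of nuclear speckles, had 24 and 23 peaks in wild type, 16 in the first knockdown list and 0 in the second, which skipped 26 numbers at its place. Its partner SRRM1 had 9, 11, 10 and 8.

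**Figure D2:**
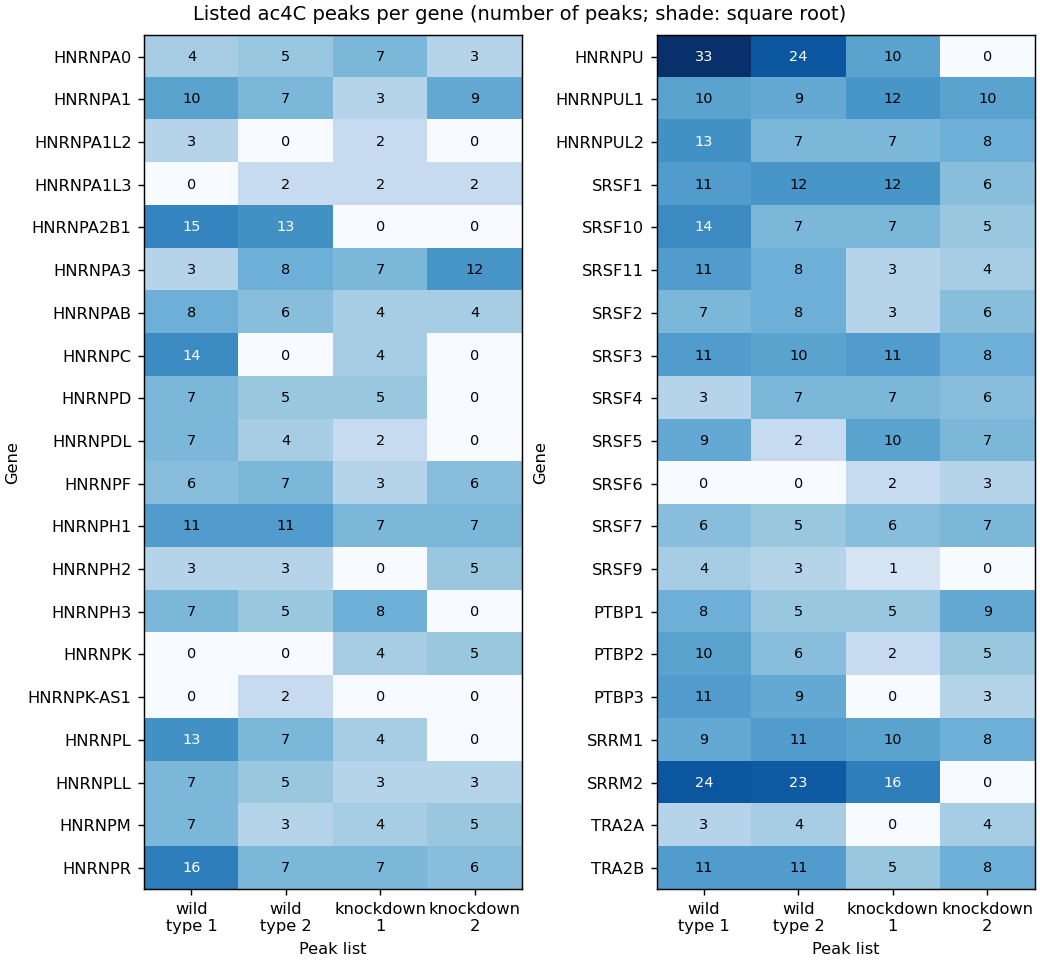
Listed peaks for each of the 40 members (rows) in each of the 4 lists (columns), with the number printed in each cell and the shade on a square-root scale. HNRNPA2B1 is listed in wild type only, HNRNPK and SRSF6 in knockdown only, and HNRNPU and SRRM2 have the highest counts and 0 in the second knockdown list.

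The 22 hnRNP genes had 197 and 138 peaks in wild type and 105 and 85 in knockdown, a ratio of 0.567 (exact p = 0.333). There were 2.59 and 2.23 hnRNP peaks per SRSF peak in wild type and 1.69 and 1.63 in knockdown, without overlap (exact p = 0.333). This ratio was formed after the values were seen. Without HNRNPU and HNRNPA2B1 it was 1.96, 1.63, 1.53 and 1.63 and no longer separated the genotypes (exact p = 0.667).

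Members were listed in all 4 lists in 23 of 40 cases (57.5%, exact interval 40.9 to 73.0), while 32.3% of all genes were. Members also had more peaks per gene than the average gene in every list, with 9.69, 7.53, 5.86 and 6.0 peaks per listed member beside 5.48, 5.18, 4.01 and 4.63 per listed gene. Of 34 members in both wild-type lists, 1 was in neither knockdown list (2.94%, background 12.8%). Of 26 members in both knockdown lists, 2 were in neither wild-type list (7.69%, background 17.1%). In 14 of 40 members both knockdown counts were below both wild-type counts (35.0%, background 22.3%), and in 2 both were above (5.0%, background 16.6%). Among the 23 members listed everywhere the lower count was 7 (30.4%), beside 31.9% of all genes listed everywhere, so this share was close to the background. The higher count was 0 of 23, beside 12.6%. By mean, 30 members were lower in knockdown and 10 higher, beside 50.5 and 44.1% of all genes.

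The second knockdown list lacked 7 of the 30 members that the other 3 lists held (23.3%, exact interval 9.93 to 42.3, background 12.6%). These were HNRNPD, HNRNPDL, HNRNPH3, HNRNPL, HNRNPU, SRRM2 and SRSF9, and the list skipped between 2 and 26 numbers at each place. The first knockdown list alone lacked 3 of 26 (PTBP3, HNRNPH2 and TRA2A, 11.5%, background 18.8%). The first wild-type list alone lacked 1 of 24 (HNRNPA1L3, 4.17%, background 15.6%), and the second 0 of 23 (background 11.1%).

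Peaks that overlapped between lists on the same strand were merged, which gave 535 member regions. Of 140 regions held by both wild-type lists, 72 were in neither knockdown list (51.4%, exact interval 42.8 to 60.0, background 52.2%). Of 84 regions held by both knockdown lists, 31 were in neither wild-type list (36.9%, 26.6 to 48.1, background 48.1%). All 4 lists held 32 of the 535 (5.98%, 4.13 to 8.34, background 3.40%), and 309 were in 1 list (57.8%, background 69.1%). The wild-type-only share was thus close to that of all regions, and the shared regions were a larger share than the background. Of the 23 members listed everywhere, 19 had a wild-type-only region (82.6%, beside 56.6% of all genes listed everywhere). A knockdown-only region was present in 18 (78.3%, beside 47.7%), and 5 had no shared region (21.7%, beside 44.6%). Members had more peaks per gene than other genes, and these shares were not matched for that.

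**Figure D3:**
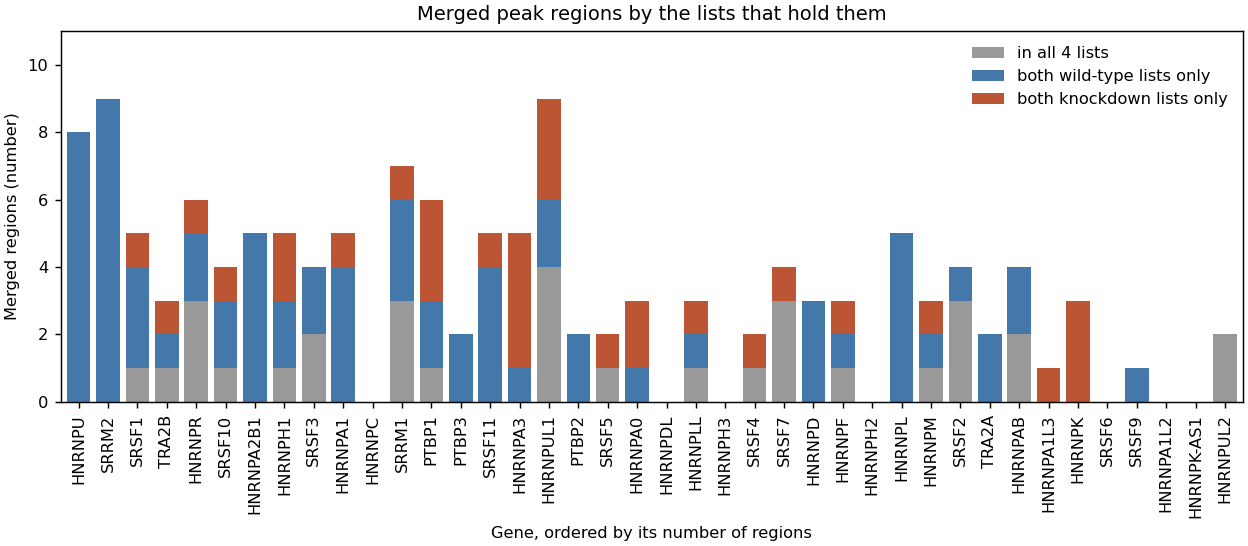
Number of merged regions per member that all 4 lists held (grey), both wild-type lists alone held (blue) or both knockdown lists alone held (red), with members ordered by their number of regions. Of these kinds, SRRM2, HNRNPU, HNRNPA2B1 and HNRNPL have wild-type-only regions alone, HNRNPK has knockdown-only regions alone, and HNRNPUL1 has 4 shared regions.

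A region was counted again only where no number was skipped at its place in the lists without it. Then 8 wild-type-only and 10 knockdown-only regions were left, and no whole gene. The 8 lay in HNRNPR (2), PTBP2, SRSF1, SRSF10, SRSF2 and SRSF3 (2). The SRSF1 region, chr17:58005456-58005605 (-), stood at percentiles 91.7 and 91.0 of the wild-type lists, with the same borders in both. One of the SRSF3 regions, chr6:36601133-36601207 (+), stood at 88.6 and 99.8, also with the same borders. The 10 lay in HNRNPUL1 (3), PTBP1 (2), HNRNPA0, HNRNPF, SRRM1, SRSF1 and SRSF5. The top one was PTBP1 at chr19:799407-799456 (+), 1955 nt from the gene's 5′ end, at percentiles 98.7 and 99.5 of the knockdown lists (scores 90.2 and 159). HNRNPF at chr10:43409114-43409163 (-) began 23 nt from the gene's 5′ end and stood at 87.9 and 81.5, and it lies before the RefSeq start entries used below for start peaks. HNRNPUL1 at chr19:41265278-41268086 (+) stood at 79.4 and 87.8. These coordinates are on hg38, counted from 1, and whether each lies in an exon, an intron or a UTR was not determined here.

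Other regions with high ranks lay where numbers were skipped. Among wild-type-only regions, HNRNPU at chr1:244857589-244857738 (-) stood at 98.5 and 98.7, HNRNPA3 at chr2:177216502-177216601 (+) at 99.5 and 95.5, and HNRNPL at chr19:38837383-38837482 (-) at 86.9 and 96.7. HNRNPA2B1 at chr7:26195841-26196681 (-) stood at 99.8 and 73.7. The others among the top 10 were HNRNPA1 at chr12:54282792-54282891 (+), with 87.8 and 91.5, HNRNPU at chr1:244862439-244862538 (-), with 99.6 and 81.7, HNRNPD at chr4:82358815-82373859 (-), with 92.4 and 78.0, and HNRNPA2B1 at chr7:26189974-26190223 (-), with 71.0 and 95. Among knockdown-only regions, HNRNPK at chr9:83980245-83980616 (-), at its 5′ end, stood at 99.8 and 99.3, and HNRNPK at chr9:83970713-83970914 (-) at 98.2 and 99.7. HNRNPA3 at chr2:177213413-177216351 (+) stood at 95.3 and 99.7, next to its wild-type-only region. The others were HNRNPA3 at chr2:177216852-177217715 (+), with 88 and 88.9, HNRNPK at chr9:83970138-83970337 (-), with 94.5 and 87.9, TRA2B at chr3:185923850-185923999 (-), with 83.8 and 82.6, and PTBP1 at chr19:808554-810931 (+), with 77.7 and 85.4. For these regions, absence from the other genotype's lists and a skipped number could not be separated.

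Shared regions were ranked by their lowest percentile over the 4 lists. SRSF5 at chr14:69768599-69768698 (+) stood at percentiles 96.2, 96.3, 99.2 and 98.0 of the 4 lists, and HNRNPAB at chr5:178205829-178209331 (+) at 96.4, 99.6, 94.8 and 99.6. The HNRNPUL2 region, chr11:62707576-62723727 (-), which also holds BSCL2 peaks, came next at 94.0, 84.6, 90.2 and 96.3. SRSF3 at chr6:36601958-36602057 (+) stood at 98.2 and 97.2 in wild type, against 85.9 and 84.3 in knockdown. It lies 3′ of the wild-type-only SRSF3 region given above. The next in rank were SRSF3 at chr6:36594738-36596992 (+), HNRNPR at chr1:23311875-23318538 (-), SRRM1 at chr1:24643719-24646812 (+), TRA2B at chr3:185925450-185926898 (-), HNRNPUL1 at chr19:41302660-41307371 (+) and SRSF4 at chr1:29154676-29159488 (-). Their lowest percentiles ran from 83.7 down to 70.7. The median percentile of shared member regions was 75.9, 76.0, 80.2 and 81.2, beside 67.6, 65.8, 72.2 and 76.5 for all shared regions. Knockdown-only member regions had medians of 77.7 and 82.0, beside 54.8 and 64.5, and wild-type-only ones 66.5 and 62.1, beside 59.0 and 60.7.

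**Figure D4:**
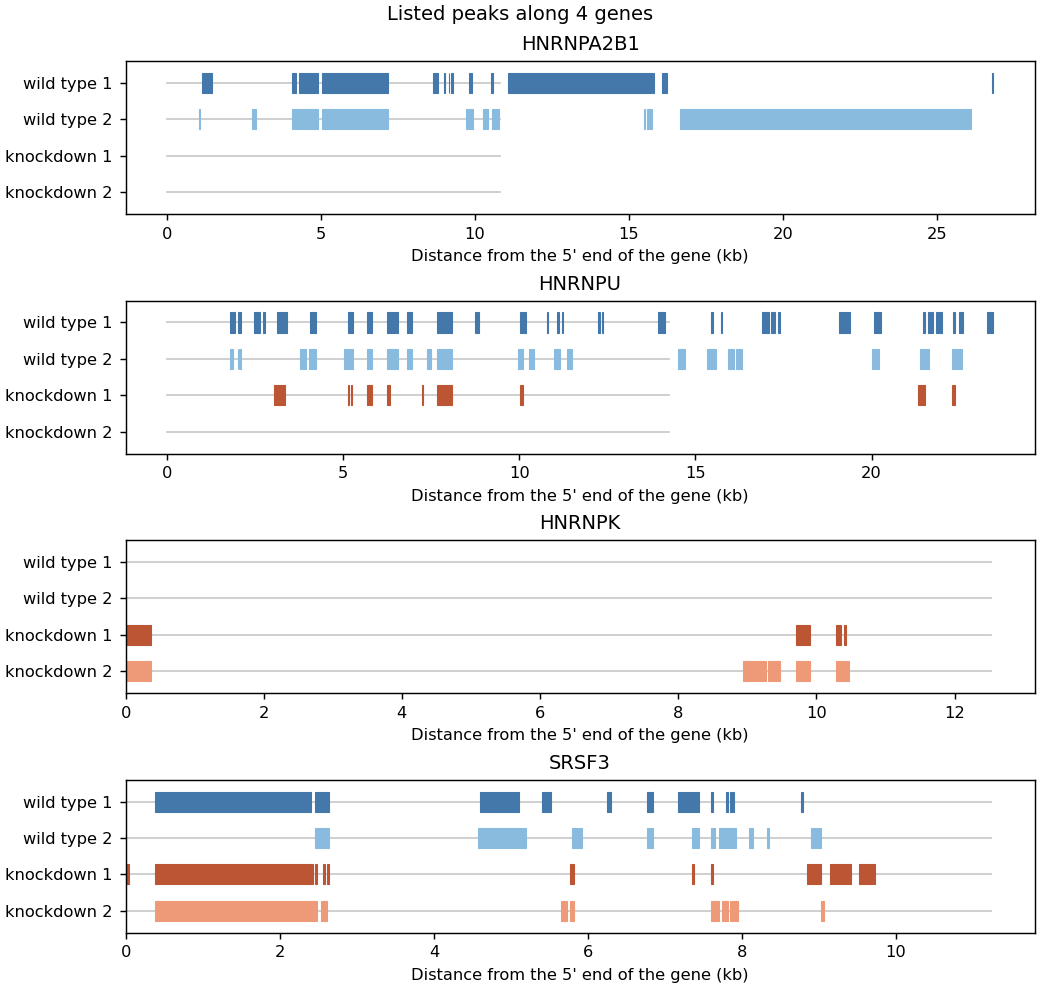
Listed peaks along HNRNPA2B1, HNRNPU, HNRNPK and SRSF3, 1 line per list, as distance in kb from the 5′ end of the gene, with the grey line for the RefSeq gene. HNRNPA2B1 is bare in both knockdown lists and HNRNPK in both wild-type lists, and HNRNPU has peaks beyond the 3′ end of the line. The wild-type-only regions of SRSF3 lie between its shared regions.

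Peaks at gene starts were more frequent in knockdown. A start peak was a listed peak that reached the first 50 transcribed bases of a RefSeq start, a measure chosen after the lists were seen, and 36 of 40 members had a RefSeq start entry (none for HNRNPA1, HNRNPA1L3, SRSF2 and TRA2A). In wild type 4 of 33 members (12.1%, exact interval 3.4 to 28.2) and 4 of 32 (12.5%, 3.51 to 29.0) had one. In knockdown 12 of 32 (37.5%, 21.1 to 56.3) and 12 of 25 (48.0%, 27.8 to 68.7) did, so the genotypes did not overlap. The means were 12.3 ± 0.268% and 42.8 ± 7.42% (SD, n = 2 each), a difference of 30.4 points with exact p = 0.333, the smallest possible. Over all genes the shares were 7.79, 11.3, 19.1 and 21.6%, a difference of 10.8 points in the same direction. With peaks of up to 1000 nt alone, members had 6.06, 9.38, 21.9 and 32.0% and all genes 6.11, 9.72, 13.0 and 13.8%.

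Of the 9 members with a start peak in both knockdown lists, 7 had none in either wild-type list. This share was close to the background of 71.9%. They were HNRNPAB, HNRNPK, HNRNPR, PTBP1, SRRM1, SRSF1 and SRSF10, whose starts are printed above. For HNRNPAB this rested on peak borders, since all 4 lists held its merged region chr5:178204558-178204757 (+). Its wild-type peaks there, at percentiles 55.7 and 86.2, began at bases 178204633 and 178204583, past the window for start peaks. Both knockdown peaks began at base 178204558, so a peak near this start was not absent from wild type. In PTBP1, SRRM1 and SRSF1 no number was skipped before the first listed peak in either wild-type list. HNRNPAB skipped 1 and 1, HNRNPR 1 and 2, SRSF10 2 and 2, and HNRNPK 15 and 13. Some of these start peaks were over 1000 nt, and such spans can hold introns. They were those of HNRNPR (3240 and 3265 nt), SRRM1 (1954 and 2190), SRSF10 (1419 and 1419) and PTBP1 (1047 and 1047). The SRRM1 peaks began at -1923 nt relative to the gene start. The start peaks of HNRNPAB (200 and 200 nt), HNRNPK (372 and 372) and SRSF1 (200 and 225) were shorter. The start peaks ranked low to high. HNRNPK's stood at percentiles 99.8 and 99.3. Those of HNRNPAB (59.0 and 95.2), PTBP1 (79.3 and 22.2), SRSF1 (85.5 and 18.0) and SRRM1 (22.7 and 40.7) differed between the 2 knockdown lists. SRSF7 had a start peak in both knockdown lists (93.9 and 97.7) and a 25 nt peak in the first wild-type list (15.0). SRSF5 was similar, with 59.6 and 55.4 in knockdown and 47.1 in the first wild-type list. HNRNPH3 was the 1 member with a start peak in both wild-type lists, and the first knockdown list held one too. The second knockdown list held no HNRNPH3 peak and skipped 12 numbers at its place. Start peaks of both wild-type lists were thus absent from both knockdown lists in 0 of 1 members (background 44.3%).

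**Figure D5:**
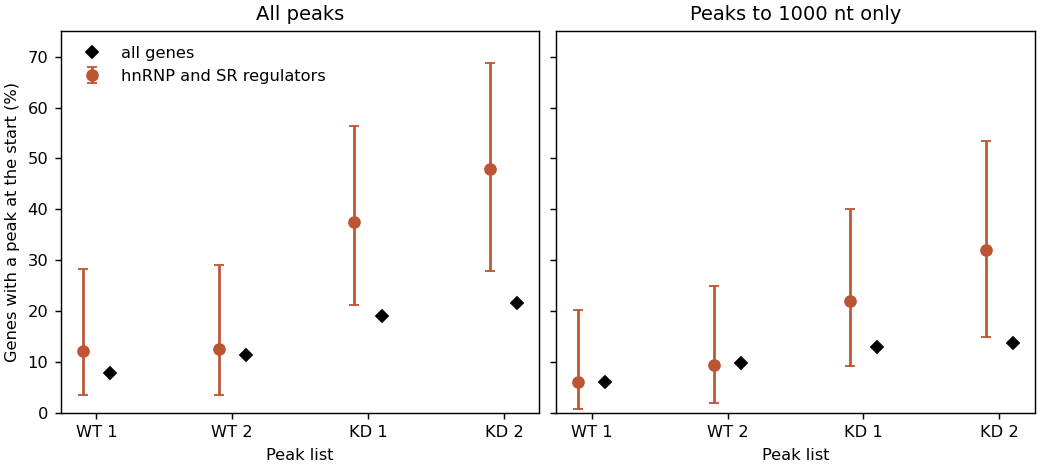
Percent of listed genes with a peak reaching the first 50 transcribed bases, for members (circles, with 95% exact intervals) and all genes (diamonds), in each list, with all peaks on the left and peaks of up to 1000 nt on the right. Members stand at 37.5 and 48.0% in knockdown and near 12% in wild type on the left. The intervals of the genotypes overlap in both panels.

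Along the genes, the midpoints of member peaks of up to 1000 nt had medians of 75.6 and 63.3% of the way from 5′ to 3′ in wild type and 54.2 and 68.9% in knockdown, which overlapped. For all genes the medians were 79.6, 77.8, 70.9 and 73.7%. The part of the span nearest the 3′ end, 20% of its length, held 44.0, 31.9, 29.9 and 34.8% of the placed member peaks, beside 49.5, 47.7, 41.7 and 43.9% of all. Member peaks overlapped a peak of the other list of the same genotype in 54.1% (wild type) and 52.6% (knockdown) of cases on average, and of the other genotype in 33.5% (25.8 to 44.4). For all peaks these were 36.8, 43.1 and 23.8%. The median score percentile of member peaks was 61.2 and 58.4 for wild type, against 67.6 and 67.7 for knockdown (difference 7.83, exact p = 0.333).

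A list of 62 other splicing regulators was examined alongside. Of these, 58 had a listed peak and 39 were in all 4 lists (background 32.3% of listed genes), and the list total was 406, 431, 300 and 329. In 21 genes both knockdown counts were below both wild-type counts (background 22.3%), and in 6 both were above (background 16.6%). Of 49 genes in both wild-type lists, 3 stood in no knockdown list, a smaller share than the background of 12.8%. U2AF1, the small subunit of the factor that reads the 3′ splice site, had 6 and 8 peaks against 0 and 0, and the branch point binder SF1 had 8 and 9 against 0 and 0. The knockdown lists skipped between 9 and 15 numbers at both places. Of 44 genes in both knockdown lists, 0 were in neither wild-type list (background 17.1%). The kinases that phosphorylate SR proteins differed among themselves, with SRPK1 at 12 and 11 against 3 and 7, SRPK2 at 5 and 7 against 2 and 2, and CLK2 at 3 and 4 against 7 and 9.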

How the data were processed

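The members and lists were chosen with earlier results of these data known. The submitters' processing notes name build hg38 and the tools bedtools 2.30.0, SAMtools 1.12, HISAT2 2.2.1 and fastp 0.21.1. Per the labels' protocols, rRNA-depleted RNA in fragments of about 200 nt went into a directional kit. Peak caller, threshold, control library, annotation and use of strand: not given in the sources used here. The deposited lists give the authors' peak coordinates (starts from 0, printed from 1), number, score, strand and gene, and no score was below 10. Lists were matched to libraries by table name. The input and IgG samples are not analysed here.

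Python 3.11.15, pandas 2.3.3, numpy 2.4.6 and scipy 1.17.1 were used. Peaks were merged into regions at an overlap of at least 1 bp on the same strand. Values per list were tested by exact permutation (two-sided, 6 arrangements of 2 against 2, smallest p 0.333). The labels do not state that replicates came from separate cultures, so each p measures the spread between these samples alone, and it may be technical. Intervals are exact (Clopper-Pearson, 95%) and cover counting error only. Genes listed in 1 genotype only, the 10 with most peaks, up to 5 others per direction without overlap, and the 10 regions of each kind with the highest lowest percentile were named by rule, and the other members were named to account for all. On simulated lists of 3000 genes the calls of genes and regions were recovered for 3000 of 3000. Alternatives were each library left out, score minimums, peak length, overlap, strand, membership, skipped numbers and a replicate block. Not every gene of the list of other splicing regulators is reported here.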

Additional observations from a re-analysis of the deposited data

How the results depend on the processing

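Of 161 alternative values, 135 kept their direction or, for counts, stayed within 1.5 times the main count. Of the rest, 24 counts moved further and 2 values reversed. No p threshold entered this, since the smallest possible p was 0.333. Effects under the replicate block equal the main ones by construction. Among the 135, 4 differed by over 1.5 times: the start peak difference (30.4 points) was 15.1 at a score of at least 20 and 19.2 without peaks over 1000 nt, the covered length ratio (0.891) was 0.476 without them, and the percentile difference (7.83) was 4.05 in the stronger 50%. Leaving out 1 library at a time gave 1 to 8 wild-type-only members (1 with all lists; 8 without the first knockdown list, 4 without the second, 2 without the first wild-type list), 2 to 3 knockdown-only members and 23 to 30 members in every list. It gave 87 to 216 wild-type-only, 39 to 94 knockdown-only and 39 to 59 shared regions (72, 31 and 32 with all lists), and 17 to 22 members with lower counts in knockdown (14 with all lists), since fewer lists have to match. The member peak ratio ran from 0.543 to 0.699, the covered length ratio from 0.720 to 1.06 (1.06, the opposite direction, without the first knockdown list), the short-peak length ratio from 0.446 to 0.506 and the start peak difference from 25.2 to 35.7 points. With the stronger 50% of each list there were 1 knockdown-only member, 35 wild-type-only and 13 shared regions. With a score of at least 20 there were 2 wild-type-only members, 12 wild-type-only, 12 knockdown-only and 5 shared regions and 6 members with lower counts, and the difference in median percentile reversed to -0.999 (exact p = 1.00). Shared regions numbered 15 without peaks over 1000 nt and 13 at an overlap of at least 100 bp. The causes were not tested. Where no number was skipped at the place, 0 wild-type-only and 0 knockdown-only members, 8 wild-type-only and 10 knockdown-only regions were left, which follows from the construction. Without HNRNPU, SRRM2 and HNRNPA2B1 the member peak ratio was 0.723. Replicate numbers did not pair the samples by the labels. Deviations of same-numbered libraries correlated at 0.27 over the 40 members and at 0.02 over all genes. The replicate block left the member peak ratio at 0.611, with a smallest possible p of 0.5.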
